A study of Arabidopsis thaliana with 6 samples.

Results

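The SERK, BIR and SOBIR1 co-receptor kinases are 9 genes of Arabidopsis thaliana, chosen by locus code out of 28259 loci in the deposited tables. They are the SERK genes BAK1 (AT4G33430), BKK1 (AT2G13790, named SERK4 in the files), SERK1 (AT1G71830), SERK2 (AT1G34210) and SERK5 (AT2G13800), the BIR genes BIR1 (AT5G48380), BIR2 (AT3G28450) and BIR3 (AT1G27190), and SOBIR1 (AT2G31880). All 9 were found and all 9 passed the filter on low counts. RNA-seq was done on whole wild-type Col-0 seedlings, 10 days old, raised in short days of 10 h light and 14 h dark and kept overnight in water under light. In 3 libraries the water had been replaced for 8 h with 3-OH-C10:0 (3-hydroxydecanoic acid, a bacterial medium-chain 3-hydroxy fatty acid sensed by the lectin receptor kinase LORE), and in 3 reference libraries with the solvent dimethyl sulfoxide (DMSO). The labels give the dose as both 5 microM and 5 mM, in different fields, and it enters no value below. No time point other than 8 h was analysed here.

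Leucine-rich repeat (LRR) receptor kinases bind peptides or steroids outside the cell, and many of them signal only after a short-ectodomain SERK kinase joins the ligand-bound receptor. BIR proteins bind SERKs, above all BAK1, and keep them away from receptors until a ligand is present. SOBIR1 is an LRR kinase that lends a kinase domain to receptor-like proteins, which have none of their own, and BAK1 joins that pair once the ligand has bound. Loss of BIR1, or loss of BAK1 together with BKK1, is known to set off immune cell death in Arabidopsis, so the amounts of these proteins are studied as a balance.

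BKK1 and SERK5 are neighbours, and their sequences bear on every value given for them. By RefSeq's annotation of TAIR10.1 both lie on chromosome 2, plus strand, BKK1 from 5741592 to 5746833 with 11 exon blocks and SERK5 from 5753103 to 5757353 with 10, with 6269 bases and no annotated gene between them. Their coding sequences were 91.4% identical over 1806 aligned bases, against 82.9% for BAK1 and BKK1 and 74.9% to 81.6% for the other SERK pairs. From coding base 1381 to base 1853 of BKK1 the pair shared a run of 473 identical bases, whereas the longest shared run of any other SERK pair was 41 bases. The lines below show, in the RefSeq TAIR10.1 genome, the 60 coding bases before the start of that run and the first 60 inside it (BKK1 chr2:5745949-5746068, plus strand; SERK5 chr2:5756433-5756552, plus strand; BAK1 chr4:16087158-16087277, minus strand), with bases that differ from BKK1 in capitals. They are shown because reads wholly inside the shared run cannot be assigned to either copy.
BKK1: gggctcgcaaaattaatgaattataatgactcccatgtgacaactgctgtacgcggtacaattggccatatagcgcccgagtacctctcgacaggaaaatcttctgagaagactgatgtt
SERK5: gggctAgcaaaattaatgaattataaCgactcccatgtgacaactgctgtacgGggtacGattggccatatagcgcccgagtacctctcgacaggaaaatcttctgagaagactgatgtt
BAK1: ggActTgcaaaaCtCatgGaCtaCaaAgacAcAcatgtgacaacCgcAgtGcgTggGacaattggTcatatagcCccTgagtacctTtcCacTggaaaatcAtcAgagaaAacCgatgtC
SERK5 differed from BKK1 at 4 of these 120 bases, all before the run began, and BAK1 at 26, spread over the stretch. Of all 100-base windows in their exons, 19.4% in BKK1 and 20.9% in SERK5 occurred in the other copy, and no such window of the remaining 7 genes occurred in another of the 9. The estimated counts of BKK1 and SERK5 were not whole numbers in any of the 6 libraries, as was the case for SOBIR1, while those of the other 6 genes were whole throughout. The split between BKK1 and SERK5 is therefore uncertain, and their sum is given beside the single values.

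The other genes lie apart. BAK1 spans 16086311 to 16090832 of chromosome 4 (minus strand, 12 exon blocks), SERK1 27018158 to 27022117 of chromosome 1 (plus, 11 blocks) and SERK2 12458564 to 12462905 of chromosome 1 (plus, 11 blocks). BIR1 spans 19604089 to 19607147 of chromosome 5 (minus, 3 blocks), while BIR2 at 10667135 to 10669428 of chromosome 3 (plus) and BIR3 at 9446597 to 9449046 of chromosome 1 (minus) have 1 block each. SOBIR1, also of 1 block, spans 13554870 to 13556977 of chromosome 2 (plus). Its last 478 bases overlap AT2G31890 on the other strand, whose level was 22.8 ± 2.51 CPM (counts scaled to a common library depth, not to length) in treated seedlings and 64.0 ± 4.52 CPM in DMSO seedlings (SD, n = 3 each), and an antisense RNA gene lies inside it. BAK1 overlaps the peroxidase gene AT4G33420 by 78 bases (64.6 ± 6.21 CPM in treated and 27.7 ± 2.99 CPM in DMSO seedlings), and SERK2 overlaps AT1G34220 by 57 (81.3 ± 2.97 CPM in treated and 37.8 ± 3.96 CPM in DMSO seedlings). SERK1 overlaps the long non-coding RNA gene AT1G71828 on the other strand, which is not among the deposited loci. Whether counting used strand is not stated, so reads of overlapping partners cannot be told apart. Values are totals over each gene, exons and untranslated regions together.

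Of the 9 genes, 6 rose in treated seedlings (BAK1, BKK1, SERK5, BIR1, BIR2 and SOBIR1) and 3 fell (SERK1, SERK2 and BIR3). Over all 19768 tested genes 71.4% were called, 35.6% as higher and 35.8% as lower, so a call by itself was common here. The size of the increases was less common. The 6 log2 fold changes lay between 1.72 and 3.36, and between 3.28% and 8.70% of all tested genes had a higher one, while the median of all tested genes was -0.04. The 3 decreases were modest, from -0.38 to -0.74. In each of the 9 genes the 3 treated libraries lay entirely on one side of the 3 DMSO libraries, which was so for 75.9% of all tested genes (37.7% with treated libraries higher and 38.2% with treated libraries lower). Adjusted p-values come from the quasi-likelihood test of edgeR, with the Benjamini-Hochberg correction across every tested gene, and a log2 fold change (treated over DMSO) carries its standard error. No label states that replicates were grown apart, so these p-values cover the spread among the 6 libraries, which may be technical.

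**Figure D1:**
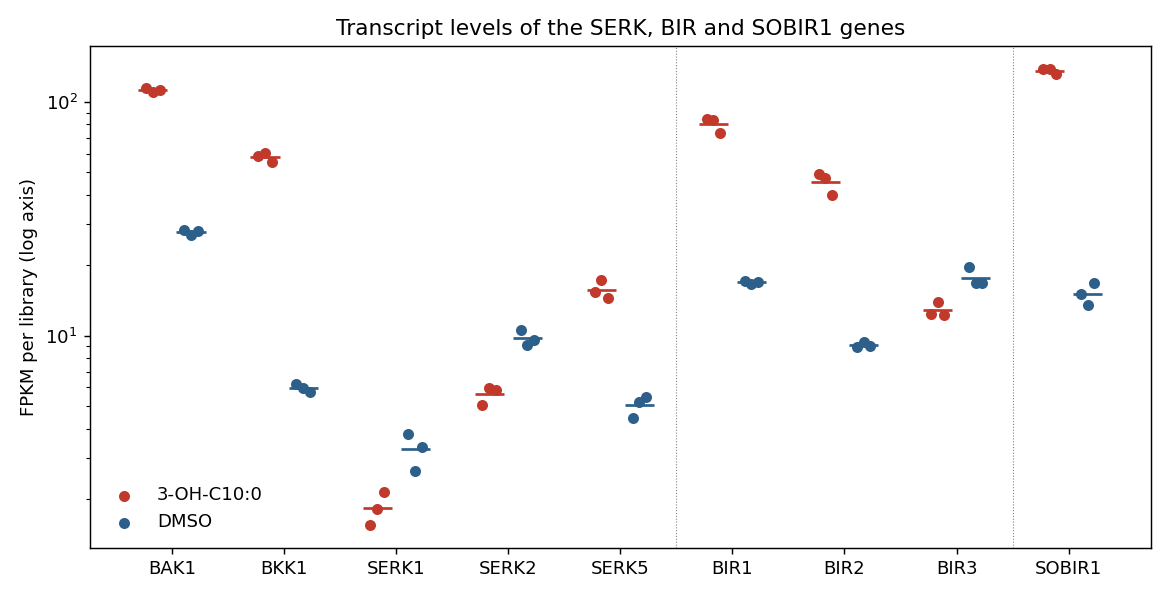
Level of each gene in each library in FPKM (log axis), with 3-OH-C10:0 libraries in red left of DMSO libraries in blue and a bar at each mean (n = 3 each). The red and blue points do not overlap for any of the 9 genes, with SERK1, SERK2 and BIR3 lower in treated libraries and the other 6 higher.

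BAK1, also called SERK3, is the co-receptor of the flagellin receptor FLS2 and of the brassinosteroid receptor BRI1. Its level was 115, 110 and 112 FPKM (fragments per kilobase, scaled to depth, so a value per length) in treated replicates 1 to 3, against 28.3, 26.8 and 28.1 FPKM in DMSO replicates 1 to 3. Every treated library was thus far above every DMSO library, and the log2 fold change was 2.1 ± 0.0827 (adjusted p = 5.3e-09). BKK1, which acts redundantly with BAK1 in immunity and in restraint of cell death, had 58.7, 60.2 and 55.1 FPKM in treated libraries, against 6.23, 5.95 and 5.75 FPKM in DMSO libraries. That was the highest fold change of the 9, 10.3-fold in mean CPM and 3.36 ± 0.0837 on the log2 scale (adjusted p = 2.7e-10). This rank takes the uncertain split of reads between BKK1 and SERK5 as deposited, and the standard error does not cover that split. SERK5, whose Col-0 allele is known to carry a change in a conserved catalytic residue, had 15.4, 17.2 and 14.4 FPKM in treated libraries, against 4.45, 5.18 and 5.46 FPKM in DMSO libraries (log2 fold change 1.72 ± 0.108, adjusted p = 1.8e-07). Taken as a pair, BKK1 and SERK5 summed to 73.7 ± 3.96 FPKM in treated and 11 ± 0.286 FPKM in DMSO seedlings, 6.69-fold higher. Their summed CPM, which does not change when reads move from one copy to the other, was 165 ± 7.04 in treated and 22.7 ± 0.779 in DMSO seedlings, 7.29-fold higher.

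SERK1 and SERK2, known for their joint role in anther development, went the other way. SERK1 had the lowest level of the 9 genes in both groups, with 1.55, 1.81 and 2.14 FPKM in treated libraries, against 3.81, 2.63 and 3.35 FPKM in DMSO libraries. These rest on 81 to 149 counts in treated and 142 to 190 counts in DMSO libraries, and the fit gave a log2 fold change of -0.74 ± 0.171 (adjusted p = 0.00270). Treated replicate 3, the highest of its group, and DMSO replicate 2, the lowest of its own, were close to each other but did not cross. SERK2 had 5.03, 5.97 and 5.86 FPKM in treated libraries, against 10.5, 9.10 and 9.60 FPKM in DMSO libraries (-0.71 ± 0.0989, adjusted p = 7.8e-05). Its groups were well apart, with every treated library lower.

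BIR1, whose loss causes cell death and constant defence that depend on SOBIR1, had 84.2, 84.0 and 73.7 FPKM in treated libraries, against 17.2, 16.6 and 16.9 FPKM in DMSO libraries (2.34 ± 0.0869, adjusted p = 3.6e-09). BIR2, a pseudokinase released from BAK1 when a ligand binds, had 49.1, 47.1 and 39.8 FPKM in treated libraries, against 8.97, 9.43 and 9.06 FPKM in DMSO libraries (2.39 ± 0.0981, adjusted p = 7.1e-09). In both genes treated replicate 3, the most deeply sequenced library, was the lowest of its group and still far above all DMSO libraries. BIR3, which binds BAK1 and also receptors such as BRI1, had 12.3, 13.9 and 12.2 FPKM in treated libraries, against 19.6, 16.7 and 16.9 FPKM in DMSO libraries. Its groups did not overlap either, but with treated libraries lower, and its change was the smallest of the 9 (-0.38 ± 0.0882, adjusted p = 0.00252).

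SOBIR1 had 139, 138 and 131 FPKM in treated libraries, against 15, 13.5 and 16.7 FPKM in DMSO libraries. It was 9.56-fold higher in mean CPM (log2 fold change 3.26 ± 0.0983, adjusted p = 9.2e-10), and 3.43% of tested genes had a higher log2 fold change. Its partner on the other strand was lower in treated libraries, as given above, and the part of reads from the overlap in the SOBIR1 counts was not tested.

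**Figure D2:**
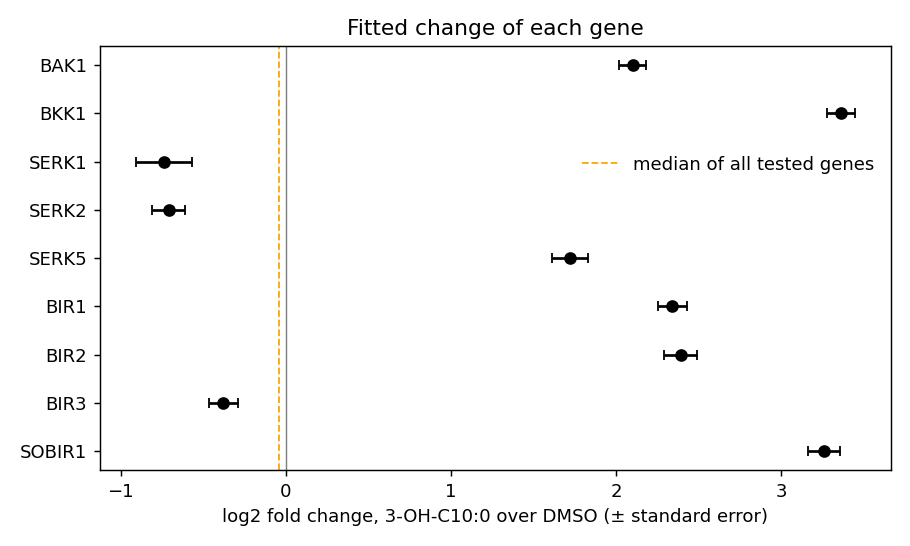
Fitted log2 fold change of each gene, 3-OH-C10:0 over DMSO, with its standard error; the dashed line is the median of all tested genes (-0.04). BKK1 (3.36) and SOBIR1 (3.26) lie farthest to the right, and SERK1 (-0.74), SERK2 (-0.71) and BIR3 (-0.38) lie left of 0.

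The order of the genes by FPKM differed between the groups. In treated seedlings SOBIR1 had the highest level (136 ± 3.92 FPKM), followed by BAK1 (113 ± 2.28), BIR1 (80.6 ± 6.02), BKK1 (58.0 ± 2.61), BIR2 (45.3 ± 4.93), SERK5 (15.7 ± 1.43), BIR3 (12.8 ± 0.948), SERK2 (5.62 ± 0.514) and SERK1 (1.83 ± 0.296; SD, n = 3 each), and no 2 neighbours in this order overlapped. In DMSO seedlings BAK1 came first (27.8 ± 0.817 FPKM), and BIR3 (17.7 ± 1.61), BIR1 (16.9 ± 0.318) and SOBIR1 (15.1 ± 1.61) followed close together, BIR3 overlapping with BIR1 and BIR1 with SOBIR1. SERK2 (9.74 ± 0.726 FPKM) and BIR2 (9.15 ± 0.244) also overlapped, and BKK1 (5.98 ± 0.241), SERK5 (5.03 ± 0.521) and SERK1 (3.26 ± 0.595) stood below them, each apart from the next. BIR3 was thus second of 9 in DMSO seedlings and seventh in treated ones.

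The SERK genes together had 196, 196 and 190 FPKM in treated libraries, against 53.3, 49.7 and 52.3 FPKM in DMSO libraries, 3.74-fold higher in the mean. BAK1 made up 58.1% ± 1.47 of that sum in treated and 53.6% ± 0.470 in DMSO seedlings, so its share moved little while its level rose. The share of BKK1 was 29.9% ± 0.876 in treated and 11.6% ± 0.503 in DMSO seedlings. SERK2 made up 2.90% ± 0.288 in treated and 18.8% ± 0.810 in DMSO seedlings, and SERK1 0.949% ± 0.169 in treated and 6.28% ± 0.931 in DMSO seedlings. For each of these 4 shares the groups did not overlap, and the exact permutation test gave a two-sided p = 0.1, the smallest that 3 against 3 libraries allow (0.125 adjusted over the 5 shares). The share of SERK5 overlapped between the groups, at 8.10% ± 0.637 in treated and 9.74% ± 1.21 in DMSO seedlings (exact permutation test, p = 0.2, adjusted 0.2). BKK1 and SERK5 together held 38.0% ± 1.49 in treated and 21.3% ± 1.20 in DMSO seedlings.

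**Figure D3:**
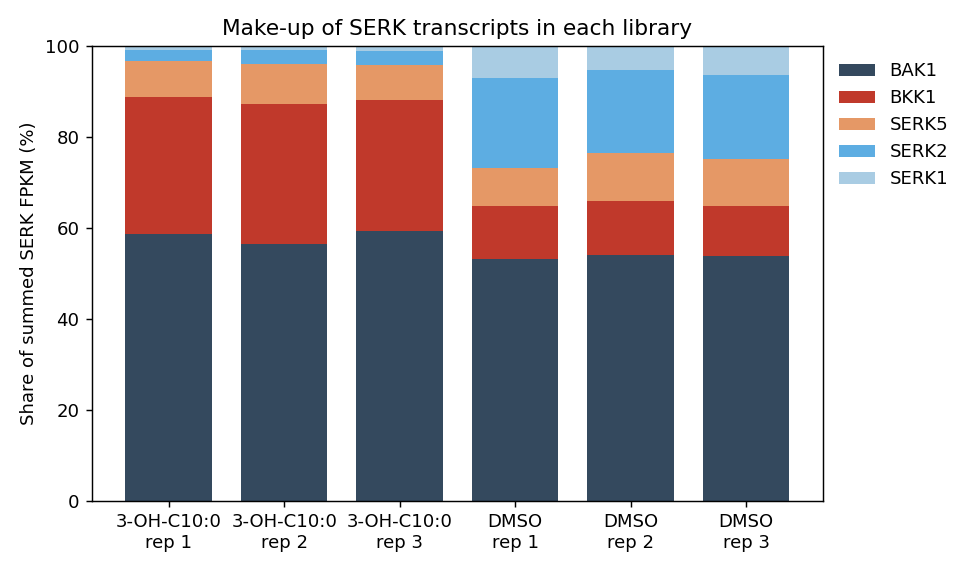
Share of each SERK gene in the summed FPKM of the 5 SERK genes (percent), one bar per library, 3-OH-C10:0 libraries left of DMSO libraries. BAK1 is the widest segment of every bar, the BKK1 segment is wider in treated libraries (29.9% against 11.6% in DMSO, means), and SERK1 and SERK2 take little of the treated bars.

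Ratios within a library show how far the genes changed by different amounts. SOBIR1 stood at 1.21 times the FPKM of BAK1 in treated and 0.542 times in DMSO seedlings (geometric means), a difference of 1.16 in log2 ratio. Relative to BIR1, whose loss phenotype depends on it, SOBIR1 stood at 1.69 in treated and 0.890 in DMSO seedlings, a difference of 0.92. BKK1 over BAK1 was 0.515 in treated and 0.215 in DMSO seedlings (log2 difference 1.26), and for BKK1 and SERK5 summed over BAK1 that difference was 0.72. The sum includes the smaller change of SERK5, so it does not show how far the split of reads moves the BKK1 value.

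Among the BIR genes, BIR1 over BAK1 was 0.715 in treated and 0.609 in DMSO seedlings (log2 difference 0.23), and BIR2 over BAK1 was 0.401 in treated and 0.330 in DMSO seedlings (0.28). BIR1 and BIR2 thus stood only slightly higher relative to BAK1. BIR3 over BAK1 was 0.114 in treated and 0.637 in DMSO seedlings (log2 difference -2.48), the widest gap of all 7 ratios. The 3 BIR genes summed to 139 ± 11.4 FPKM in treated and 43.8 ± 1.71 FPKM in DMSO seedlings. Their sum over that of the SERK genes was 0.745, 0.742 and 0.662 in treated libraries, against 0.857, 0.859 and 0.819 in DMSO libraries (log2 difference -0.24, and -0.16 with CPM in place of FPKM). The groups did not overlap in any of the 7 ratios, each with p = 0.1 in the exact two-sided permutation test (adjusted p = 0.1), the smallest possible here. For BIR2 over BAK1 they were barely apart, with 0.354 in treated replicate 3 and 0.352 in DMSO replicate 2. With a pseudocount of 0.5 FPKM, the exact two-sided permutation test of BIR2 over BAK1 gave p = 0.2, so that separation was lost. All 7 are ratios of transcripts, and protein was not measured.

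**Figure D4:**
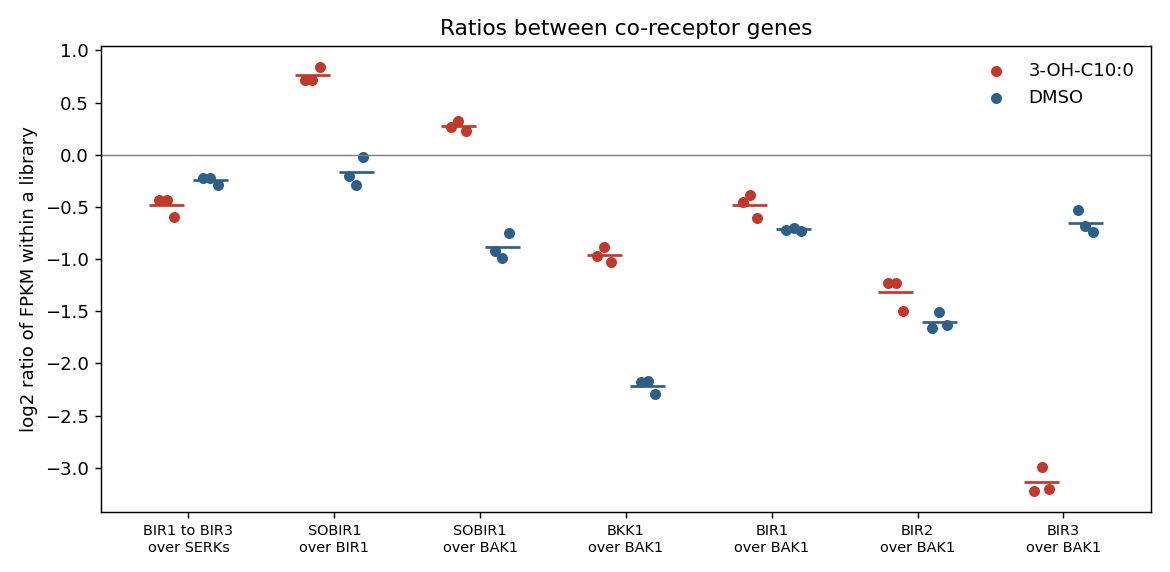
Within-library log2 ratios of FPKM for the 7 ratios compared, with 3-OH-C10:0 libraries in red left of DMSO libraries in blue and a bar at each mean (n = 3 each). BIR3 over BAK1 shows the widest gap (mean -3.14 in treated and -0.65 in DMSO libraries), and SOBIR1 over BAK1 and over BIR1 lies above 0 in treated libraries only.

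For 8 of the genes, all but SOBIR1, the 250 bases before the annotated gene start were searched for the W-box core TTGAC, the motif bound by WRKY transcription factors, on both strands, and for the G-box CACGTG, which reads the same on both strands. The W-box core occurred in 6 of the 8 windows, against 44.9% of 27443 windows of the same length before protein-coding genes, and at least 2 matches occurred in 3 of the 8 (BAK1, BKK1 and BIR1), against 14.1%. BIR2, SERK1 and SERK2 had 1 match each, and SERK5 and BIR3 had none. The motif was thus in windows of genes of both directions, and of the tandem pair BKK1 had it and SERK5 did not. The G-box was in none of the 8 windows, against 6.49% of all. The windows with 2 matches are printed from the RefSeq TAIR10.1 genome with W-box cores in capitals (GTCAA is the core on the other strand): BAK1 chr4:16090833-16091082, minus strand; BKK1 chr2:5741342-5741591, plus strand; BIR1 chr5:19607148-19607397, minus strand.
BAK1: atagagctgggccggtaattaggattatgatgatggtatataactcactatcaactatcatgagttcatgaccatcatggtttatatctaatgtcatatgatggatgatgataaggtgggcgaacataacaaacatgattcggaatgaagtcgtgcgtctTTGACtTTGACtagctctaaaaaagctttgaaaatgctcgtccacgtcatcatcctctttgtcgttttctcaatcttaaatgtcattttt
BKK1: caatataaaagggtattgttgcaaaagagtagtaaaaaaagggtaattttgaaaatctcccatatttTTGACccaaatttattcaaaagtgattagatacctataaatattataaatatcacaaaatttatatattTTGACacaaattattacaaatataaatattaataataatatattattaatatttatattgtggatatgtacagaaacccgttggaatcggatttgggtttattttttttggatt
BIR1: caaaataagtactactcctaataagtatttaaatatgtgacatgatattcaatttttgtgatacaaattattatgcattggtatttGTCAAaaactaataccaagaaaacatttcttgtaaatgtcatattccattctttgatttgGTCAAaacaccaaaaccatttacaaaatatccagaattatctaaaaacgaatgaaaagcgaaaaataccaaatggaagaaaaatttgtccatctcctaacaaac
In BAK1 the 2 cores stand in the same direction, 1 base apart. A match describes the letters only, and binding was not measured.

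Of 20 LRR receptor kinases that act with SERKs, 10 rose, 8 fell and 2 did not pass, with a median log2 fold change of 0.06 (all tested genes -0.04). These counts are 50% and 40% of the list, against 35.6% and 35.8% of all tested genes, so both directions were present in number. The sizes were uneven, with log2 fold changes from -1.3 to 4.71. Summed over the list the level was 479 to 548 FPKM in treated and 225 to 228 FPKM in DMSO libraries. Much of that sum was AT4G08850, at 203 ± 28.5 FPKM in treated and 35.1 ± 3.72 FPKM in DMSO seedlings. The LRR kinase AT1G74360 rose most (94.3 ± 12 CPM in treated and 3.58 ± 0.320 CPM in DMSO seedlings, log2 fold change 4.71, adjusted p = 5.1e-10). The LRR kinase AT4G08850 (2.61), the brassinosteroid receptor BRL3 (2.11) and EFR, the receptor of bacterial elongation factor Tu (2.07), rose as well. BRI1 fell by 0.42 and the growth receptor ERECTA (ER) by 0.65 on the log2 scale, and EMS1, an anther receptor, fell by 0.49. FLS2 did not pass, at 23.3 ± 0.902 CPM in treated and 27.4 ± 4.4 CPM in DMSO seedlings (log2 difference -0.23, adjusted p = 0.084), nor did PEPR2, a receptor of Pep danger peptides (-0.32, adjusted p = 0.25).

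Of 5 receptor-like proteins that act with SOBIR1, RLP23, RLP30 and RLP42 rose, RLP1 fell and RLP32 did not pass (median log2 fold change 0.88). In this list 60% rose and 20% fell, against 35.6% and 35.8% of all tested genes. RLP30, a receptor for a fungal protein, was at 54.3 ± 9.31 CPM in treated and 5.07 ± 0.272 CPM in DMSO seedlings (3.42, adjusted p = 1.1e-08). RLP23, which senses nlp20 peptides, was at 9.13 ± 3.10 CPM in treated and 0.525 ± 0.170 CPM in DMSO seedlings (4.09, adjusted p = 7.9e-06), and RLP42, a sensor of fungal polygalacturonases, had a log2 fold change of 0.88. RLP1 had a log2 fold change of -0.42 (adjusted p = 0.0254), a call lost without DMSO replicate 2 (adjusted p = 0.113), without treated replicate 1 (0.0977) and with DESeq2 (0.0632), and RLP32 one of 0.50 (adjusted p = 0.115). Summed over the 5 genes the level was 24.5 to 33.6 FPKM in treated and 7.29 to 7.80 FPKM in DMSO libraries, below that of SOBIR1 alone in each group.

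Transcripts of all 6 receptor-like cytoplasmic kinases of BAK1 complexes rose (median 1.52), among them RIPK (3.43), the protein kinase AT3G09830 (2.58) and BSK1 (1.04), a kinase also used by BRI1. Of all tested genes 35.6% rose and 35.8% fell, the shares to set beside each count in this paragraph. All 12 regulators and partners rose (median 1.13), with BAP1 (4.03), which restrains cell death together with the copine BON1 (1.59), and the calcium channel CNGC20 (2.80), a BAK1 substrate in cell death, having the smallest p. The smallest change of this list was that of the phosphatase subunit RCN1 (0.22, adjusted p = 0.024), and its call was lost without DMSO replicate 2 (0.0557), DMSO replicate 3 (0.0629) or treated replicate 1 (0.0786), under total-count scaling (0.131) and under limma on FPKM (0.126 and 0.124). The ubiquitin ligase PUB12 (0.57, adjusted p = 0.013), which marks FLS2 for breakdown with PUB13, lost its call without treated replicate 3 (0.0603) and under limma on FPKM (0.0596 and 0.0627). All 8 nucleotide-binding and lipase-like proteins tied to autoimmunity of BAK1, BIR and SOBIR1 plants rose (median 1.79), with PAD4 (2.88), EDS1 (2.15) and the helper ADR1-L1 (2.13) having the smallest p.

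Of 10 other kinases of the LRR II and LRR X subfamilies, 9 were tested, of which 2 rose, 4 fell and 3 did not pass (median -0.19, highest 0.74). The share that fell, 44.4%, was near the 35.8% of all tested genes, and the share that rose was 22.2%, against 35.6%. NIK3, of the NSP-interacting kinases known from antiviral signalling, fell by 1.23 and AT2G23950 fell by 1.12 on the log2 scale, and AT5G65240 rose by 0.74. NIK2 (-0.19, adjusted p = 0.13), AT5G45780 (-0.08, adjusted p = 0.624) and AT5G63710 (-0.03, adjusted p = 0.798) did not pass. AT1G69990 had too few counts to be tested. Whether these lists differ from the 9 genes was not tested, and the lists were put together with earlier results of these libraries known.

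**Figure D5:**
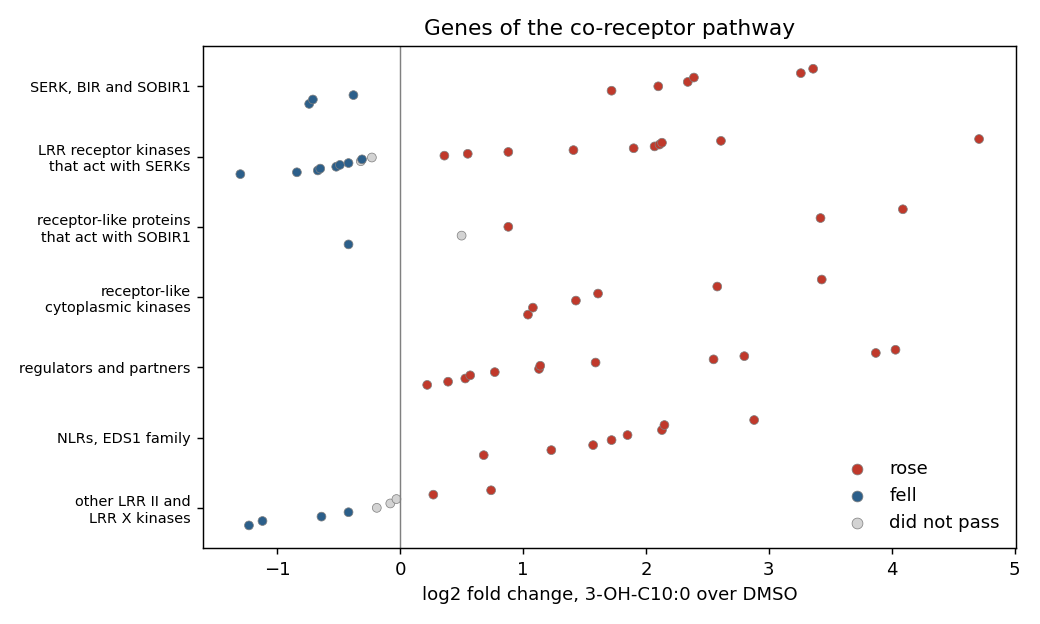
Log2 fold change, 3-OH-C10:0 over DMSO, of each tested gene in the 9 co-receptor genes and 6 lists of related genes, in red where it rose, blue where it fell and grey where it did not pass. The cytoplasmic kinases, the regulators and the NLR and EDS1 list lie wholly right of 0, and the SERK-partner receptors lie on both sides.

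By the root mean square difference of log2 CPM over the 6 libraries, each gene set to its own DMSO mean, the genes most like BAK1 among 19166 were the protein kinase gene AT1G03740 (0.0531), CAD1, a phytochelatin synthase (0.0553), and LYK4, a LysM receptor kinase (0.0587). Those most like SOBIR1 were the glycosyltransferase AT3G10320 (0.0608), the ATPase gene AT3G25610 (0.0717) and the N-acetylglucosaminyltransferase family gene AT1G73810 (0.0800). Within a chosen limit of 0.2, wider than these distances, lay 268 of the 19166 genes for BAK1 and 82 for SOBIR1. The genes named are thus the nearest of many.

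The estimated counts summed to 18064723 to 27131500 in treated and 19390988 to 21000782 in DMSO libraries. Same-group libraries correlated at 0.989 to 0.993 (Pearson r over genes), and libraries of different groups at 0.829 to 0.866. None of the 22 markers of leaf, root, guard cell and vascular tissue was at 0 in any library. The root marker AGP30 was barely detected in treated libraries, at 3, 2 and 1 counts, against 352, 248 and 425 counts in DMSO libraries. Its level, 0.09 ± 0.0557 FPKM in treated and 15.9 ± 4.23 FPKM in DMSO seedlings, is part of the root sum below. Beside each marker count stand the shares of all tested genes, of which 35.6% rose and 35.8% fell. Of 5 leaf mesophyll markers, 4 fell and 1 rose, and their summed level was 7770 to 10600 FPKM in treated and 28600 to 30300 FPKM in DMSO libraries. Of 9 root markers 5 fell and 1 rose (54.8 to 66.9 FPKM in treated and 86.5 to 102 FPKM in DMSO libraries), of 4 guard cell markers 1 fell (12.7 to 14.6 FPKM in treated and 20.7 to 21.6 FPKM in DMSO libraries), and of 4 vascular markers 2 rose and 2 fell (154 to 171 FPKM in treated and 112 to 116 FPKM in DMSO libraries). In whole seedlings fewer cells of a type and less RNA per cell cannot be told apart, and the part of these shifts in the values of the 9 genes was not tested.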

How the data were processed

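RNA-seq of 6 libraries of whole Col-0 seedlings, 3 treated and 3 DMSO, was used as deposited. Per the submitters' processing notes the tools included HISAT2 2.2.4, RSEM, StringTie 1.3.1, Bowtie2 2.2.8 and fastp 0.18.0, with TAIR10 as the build. Their roles, the read length and strandedness are not stated. Each deposited file holds, per its file header, a count for every locus. The authors' counts are estimated counts with no normalization, since 3.618% were not whole and their totals differ by library, and they were rounded. The authors' FPKM, deposited beside them, served for levels of different genes and for ratios. Coordinates and sequences were taken from RefSeq TAIR10.1 by locus code. The files themselves carry no coordinates. No protein sequence was used here, and the window before SOBIR1 is not reported here.

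The filterByExpr step of edgeR 4.0.16 (minimum count 10) left 19768 genes. They were scaled by TMM and tested by the robust quasi-likelihood F test, two-sided, without a replicate block. The standard error of a log2 fold change was derived from that test, as its absolute value divided by the square root of F. "Rose" and "fell" mean an adjusted p (Benjamini-Hochberg) under 0.05. CPM are TMM-scaled, and 3 counts in a library equal 0.111 to 0.166 CPM. Counting error is only a part of the error given. Coding sequences were aligned globally with Biopython 1.88. Shares and ratios used exact permutation tests in SciPy 1.17.1. Alternatives were RLE and total-count scaling, no filter, DESeq2 1.42.0, limma 3.58.1 on log2(FPKM + 0.5) and log2(FPKM + 0.1), a replicate block, and leaving out each library. For shares and ratios they were CPM, a pseudocount, summed tandem copies and the leaving out of libraries.

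The members and lists were chosen with earlier results of these data known. Of each list the text names the 3 genes with the smallest p among those called, and the members that fell or did not pass where these were 3 or fewer, otherwise the 3 with the largest p. The genes most like BAK1 and SOBIR1 were sought with a pseudocount of 0.5 CPM among genes averaging 20 counts or more in the higher group. EFR, BRI1, ER, RCN1, PUB12 and AT5G10290 were named after their values were seen. List genes with no name in the files or annotation are given by locus code.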

Additional observations from a re-analysis of the deposited data

How the results depend on the processing

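All 9 genes kept their direction and their side of the threshold under all 13 alternatives, with 6 higher and 3 lower each time. The log2 fold change ranged from 3.17 to 3.39 for BKK1, 3.13 to 3.32 for SOBIR1, 2.0 to 2.13 for BAK1, -0.88 to -0.62 for SERK1 and -0.47 to -0.32 for BIR3. The labels do not say that replicate numbers pair the libraries. Deviations of same-numbered libraries from their group means correlated at 0.0414, -0.0099 and 0.136, and those of differently numbered libraries at -0.124 to 0.0652. With 3 libraries in each group mean, such values cannot decide whether the libraries were paired. With a replicate block 7063 genes rose and 7087 fell, against 7036 and 7084 without it, and the 9 calls were the same. With pairing by number, the exact permutation test of each share and ratio gave p = 0.25, the smallest it allows with 3 pairs.

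Of the LRR receptor kinases that act with SERKs 8 fell, and 7 to 9 under the alternatives, while 10 rose under each. Of the other LRR II and LRR X kinases 4 fell, and 4 to 5 under the alternatives. The count of SOBIR1-linked receptor-like proteins that fell was 1, 0 with DESeq2 (1 at an unadjusted p under 0.05, RLP1) and 0 to 1 when 1 library was left out. The count of other LRR II and LRR X kinases that rose was 2, and 1 under total-count scaling and under limma on FPKM with either pseudocount, where AT5G10290 lost its call (adjusted p = 0.0505, 0.0574 and 0.0569); the cause was not tested. With CPM in place of FPKM the gain in the BKK1 share was 17.1 percentage points in place of 18.4, and the difference in the log2 ratio of BIR to SERK genes was -0.16 in place of -0.24. CPM carries no length, so longer genes weigh more in it. The difference in the BKK1 to BAK1 ratio, 1.26, was 0.72 with SERK5 added to BKK1 and 1.17 with a pseudocount of 0.5 FPKM. Leaving out 1 library moved it between 1.22 and 1.29, and the ratio of BIR to SERK genes between -0.27 and -0.19. For BIR2 over BAK1 the log2 difference was 0.24 with a pseudocount of 0.5 FPKM, in place of 0.28. The exact two-sided permutation test of BIR2 over BAK1 then gave p = 0.2 in place of p = 0.1. SERK1, with 81 to 190 counts a library, is the gene that depth limits most.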
